A study of Mus musculus with 6 samples.

Results

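The 10 genes described here encode the factors that detect stalled and collided ribosomes, take them apart and remove the unfinished protein. They were chosen by name (Pelo, Hbs1l, Zfp598, Gigyf2, Ascc3, Nemf, Ltn1, Gtpbp2, Edf1 and Map3k20), by a rule that uses no measured value but was set with earlier results of these data known, and all 10 were found among the 22770 gene rows of the deposited table. The table gives ribosome footprint density, obtained by sequencing the RNA stretches that ribosomes protect from nuclease, in round spermatids, the haploid cells that follow meiosis in the mouse testis. There were 3 samples of the genotype labelled Eif5a SKO, called cKO in the table's own columns, and 3 wild-type (WT) samples. The sources used here do not spell out SKO or give the strain, the age or any Cre driver, and they name no treatment for either group. They name the CATS and the D-Plex small RNA kits without saying which library was made with which. The series design text, written for a different assay, gives sorted cells from 3 mice per group, so a sample may stand for 1 animal, though the labels of these libraries do not say so. EIF5A is a translation factor that helps ribosomes through stretches that are hard to decode, such as runs of proline.

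A ribosome that stops on an mRNA can be hit by the ribosome behind it. The E3 ubiquitin ligase ZNF598 (mouse Zfp598) marks the small subunit of such collided ribosomes, EDF1 binds at the collision, GIGYF2 represses further initiation on the mRNA, and the helicase ASCC3 pulls the leading ribosome apart. ZAK, the product of Map3k20, turns collisions into stress kinase signalling. Pelota (Pelo) and its GTPase partner HBS1L release ribosomes that stand with an empty decoding site, and GTPBP2 is a related GTPase linked to Pelota. NEMF and the ubiquitin ligase listerin (Ltn1) then act on the large subunit, where the unfinished chain is still attached. In Drosophila, Pelota is known for its part in male meiosis, and in the mouse for the upkeep of spermatogonial stem cells.

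The genotype labels were borne out by the targeted gene. Eif5a (chromosome 11, 69916712 to 69921958, GRCm38) had 1.84, 1.93 and 2.99 FPKM in the SKO libraries, against 34.2, 48.8 and 61.9 FPKM in the WT libraries. Its change on the log2(FPKM + 1) scale was -3.90 (SE 0.37, limma, adjusted p = 0.00641). FPKM is a density of fragments scaled to transcript length and to the size of the library. Relative depth, read from the steps between low values, spanned 0.503 to 1 in SKO libraries and 0.631 to 0.787 in WT libraries, with SKO replicate 1 set to 1. These depths are rough, since only 21.9% of 2710 low rows stepped in whole reads. Protein-coding rows held 18.3% to 33.1% of the summed FPKM in SKO libraries and 22.5% to 28.5% in WT libraries. Round spermatid markers were present in every library: the 7 listed of 8 summed to between 877 and 1890 FPKM in SKO libraries and between 706 and 1273 FPKM in WT libraries. The 5 Leydig cell markers, genes of the hormone-producing cells between the tubules, summed to between 51.8 and 104.9 FPKM in SKO libraries and between 10.6 and 16.8 FPKM in WT libraries, so the groups did not overlap, although none of the 5 passed the test. Of 6 Sertoli cell markers only Clu, which other cells also express, was listed, with 25.0 to 31.9 FPKM in SKO and 3.14 to 7.19 FPKM in WT, and the other 5 were not analysed here. The groups of Clu did not overlap, as for 10.9% of all tested rows in this direction, and Clu did not pass the test. Of 4 listed markers of peritubular, blood and other cells 1 was higher in SKO by the test (Dcn, named after its values were seen), against 0.109% of all tested rows. The sums of the 4 overlapped (37.3 to 39.4 FPKM in SKO, 22.5 to 39.5 FPKM in WT). Spermatocyte markers summed to 94.4 to 155.8 FPKM in SKO and 59.4 to 131.7 FPKM in WT, and the 2 listed spermatogonia markers to 2.92 to 9.04 FPKM in SKO and 4.05 to 6.22 FPKM in WT. The part of these other cell types in the values below was not tested.

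None of the 10 stalling and rescue genes changed between SKO and WT round spermatids by the test across all genes. Edf1 was by far the densest, at about 100 FPKM in both genotypes, while Pelo and Zfp598 lay at about 1 FPKM in both. By fitted difference, 5 members were higher and 5 were lower in SKO with the deposited values, where the median of all tested rows was itself 0.13. Against that median 3 were above and 7 below, and under the TMM-type scaling described below 4 were higher and 6 lower. The differences ran from -0.50 for Ascc3 to 0.31 for Nemf on the log2(FPKM + 1) scale. With limma and Benjamini-Hochberg adjustment over 15578 tested rows, 0 of the 10 had an adjusted p under 0.05, against 0.128% of all tested rows (0.109% higher and 0.0193% lower in SKO). At an unadjusted p under 0.05 the count was also 0 of 10, against 11.0% of all rows (8.15% higher and 2.83% lower). The groups overlapped for every member in the deposited values, whereas they did not overlap for 15.7% of all tested rows (10.9% higher and 4.78% lower in SKO). All 10 passed the filter, which asked for 1 FPKM or more as the average of the 6 libraries, though Zfp598 (mean 1.0003 FPKM) and Pelo (mean 1.01 FPKM) did so narrowly. Footprint density moves with mRNA amount, with how often an mRNA is translated and with ribosome speed, and RNA levels are not analysed here. In such bulk samples a lower share of a cell type and less RNA per cell cannot be told apart.

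**Figure D1:**
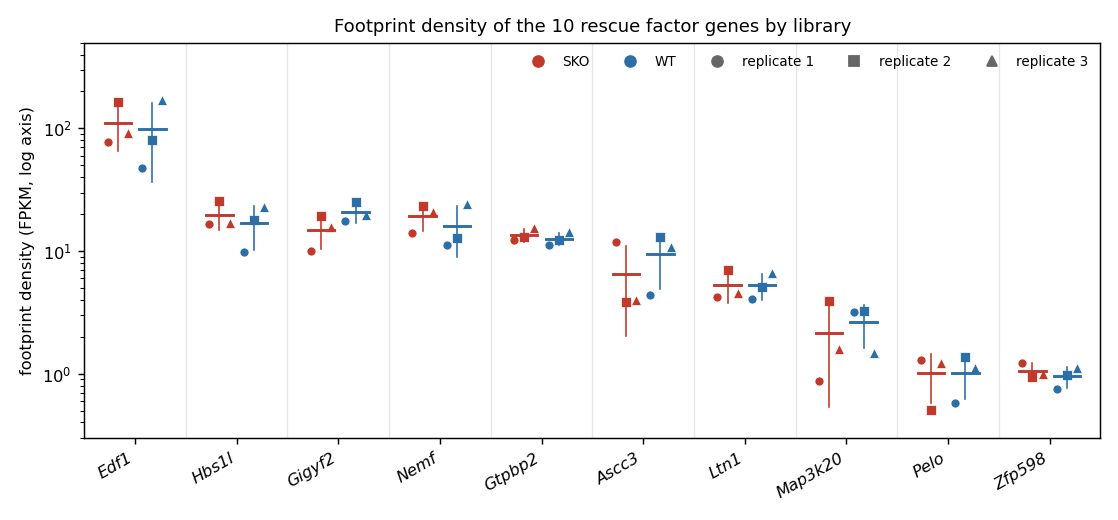
Footprint density in FPKM (log axis) of the 10 genes, ordered by mean over the 6 libraries, with SKO in red on the left and WT in blue on the right of each gene. Symbols mark replicates, horizontal lines the group means and vertical lines 1 SD (n = 3 per group). The groups overlap for every gene.

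Among the genes that recognise collisions, Edf1 (chromosome 2, 25557824 to 25562084, GRCm38 here and below) had 77.4, 163 and 92.3 FPKM in the SKO libraries, against 47.4, 81.1 and 169.6 FPKM in the WT libraries. The means were 110.8 ± 45.6 FPKM in SKO and 99.4 ± 63.1 FPKM in WT (SD, n = 3 each). The highest and the lowest value were both from WT libraries, so the SKO values lay inside the WT range. The fitted difference was 0.27 (95% confidence interval -0.94 to 1.49, limma, adjusted p = 0.899), an interval that holds anything from 0.522-fold to 2.80-fold on the FPKM + 1 scale.

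Zfp598, the ligase that marks collided ribosomes (chromosome 17, 24669687 to 24682023), was at the low end. It had 1.23, 0.934 and 0.990 FPKM in the SKO libraries, against 0.746, 0.983 and 1.12 FPKM in the WT libraries. The values differed little in either group, and their order mixed the genotypes (difference 0.076, interval -0.66 to 0.81, limma, adjusted p = 0.965). In rows under 1 FPKM the step between values, taken as 1 read, had a median of 0.118 to 0.234 FPKM across the 6 libraries. A value of about 1 FPKM may thus rest on few reads.

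Gigyf2, the translational repressor of stalled mRNAs (chromosome 1, 87326931 to 87450810), was the member whose groups came closest to separating. It had 9.99, 19.1 and 15.8 FPKM in the SKO libraries, against 17.7, 25.1 and 19.8 FPKM in the WT libraries. SKO replicate 2 lay above WT replicate 1, and the other SKO libraries lay below all WT libraries. The means were 15.0 ± 4.63 FPKM in SKO and 20.9 ± 3.83 FPKM in WT (SD, n = 3 each), with a difference of -0.48 (interval -1.34 to 0.37, limma, adjusted p = 0.680). Under TMM-type scaling, which divides a library by a trimmed mean of its log ratios to a common library, Gigyf2 had 11.8, 14.6 and 14.7 scaled FPKM in SKO and 21.8, 27.1 and 17.8 scaled FPKM in WT. The scaled groups no longer overlapped, which held for 21.5% of all tested rows under this scaling, 11.6% in the higher and 9.85% in the lower direction. The scaled difference was -0.65 (interval -1.20 to -0.10, limma, unadjusted p = 0.0268, adjusted p = 0.247). Gigyf2 thus missed the threshold under this scaling too, where 1.02% of all tested rows passed (0.764% higher and 0.257% lower), and it was the single member of 10 with an unadjusted p under 0.05, against 15.6% of all rows (8.90% higher and 6.71% lower).

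Ascc3, the helicase (chromosome 10, 50592663 to 50851202), varied more between replicates than between genotypes. It had 11.8, 3.88 and 4.02 FPKM in the SKO libraries, against 4.37, 12.9 and 10.8 FPKM in the WT libraries. Each group held libraries near 4 FPKM and libraries near 11 FPKM, with SKO replicate 1 at the high end and WT replicate 1 at the low end. The difference was -0.50 (interval -1.65 to 0.65, limma, adjusted p = 0.764). Map3k20, which encodes the kinase ZAK (chromosome 2, 72285637 to 72442610), had 0.871, 3.93 and 1.59 FPKM in the SKO libraries, against 3.20, 3.25 and 1.46 FPKM in the WT libraries. Its lowest and its highest value both came from SKO libraries (difference -0.29, interval -1.28 to 0.69, limma, adjusted p = 0.860).

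Among the rescue factors, Pelo (chromosome 13, 115088355 to 115090158) had 1.30, 0.507 and 1.23 FPKM in the SKO libraries, against 0.579, 1.36 and 1.11 FPKM in the WT libraries. Both groups held 1 low library and a pair of higher ones, and their means were 1.01 ± 0.439 FPKM in SKO and 1.02 ± 0.398 FPKM in WT (SD, n = 3 each; difference -0.0080, interval -0.83 to 0.81, limma, adjusted p = 0.995). The annotated span of Pelo lies inside that of Itga1, an integrin gene, and the sources used here do not say how reads were divided between them. Itga1 had 1.75, 1.503 and 2.09 FPKM in SKO and 2.21, 2.05 and 1.88 FPKM in WT (limma, adjusted p = 0.917), so neither gene of the locus passed the test.

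Hbs1l, the partner GTPase (chromosome 10, 21295979 to 21368889), was far denser than Pelo. It had 16.7, 25.5 and 17.0 FPKM in the SKO libraries, against 9.80, 17.8 and 22.8 FPKM in the WT libraries (difference 0.27, interval -0.66 to 1.20, limma, adjusted p = 0.863). The lowest value came from WT replicate 1 and the highest from SKO replicate 2, with the others between. The long non-coding RNA gene 4930455C13Rik overlaps the span of Hbs1l, and it did not pass the test either (difference -0.27, limma, adjusted p = 0.846). Gtpbp2 (chromosome 17, 46159227 to 46169370) had 12.2, 12.9 and 15.4 FPKM in the SKO libraries, against 11.3, 12.4 and 14.2 FPKM in the WT libraries. The groups were close, at 13.5 ± 1.68 FPKM in SKO and 12.6 ± 1.502 FPKM in WT (SD, n = 3 each; difference 0.090, interval -0.66 to 0.84, limma, adjusted p = 0.956). The sign of this small difference turned under the TMM-type scaling (-0.067).

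Of the genes that act on the large subunit, Nemf (chromosome 12, 69311541 to 69357201) had 14.0, 23.4 and 20.7 FPKM in the SKO libraries, against 11.2, 12.7 and 24.3 FPKM in the WT libraries. A pair of WT libraries lay below all SKO libraries and WT replicate 3 above them all (difference 0.31, interval -0.63 to 1.24, limma, adjusted p = 0.843). Ltn1 (chromosome 16, 87376651 to 87432619) had 4.22, 7.00 and 4.57 FPKM in the SKO libraries, against 4.10, 5.10 and 6.60 FPKM in the WT libraries. Its group means were 5.26 ± 1.52 FPKM in SKO and 5.26 ± 1.26 FPKM in WT (SD, n = 3 each; difference -0.0075, interval -0.79 to 0.78, limma, adjusted p = 0.996).

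**Figure D2:**
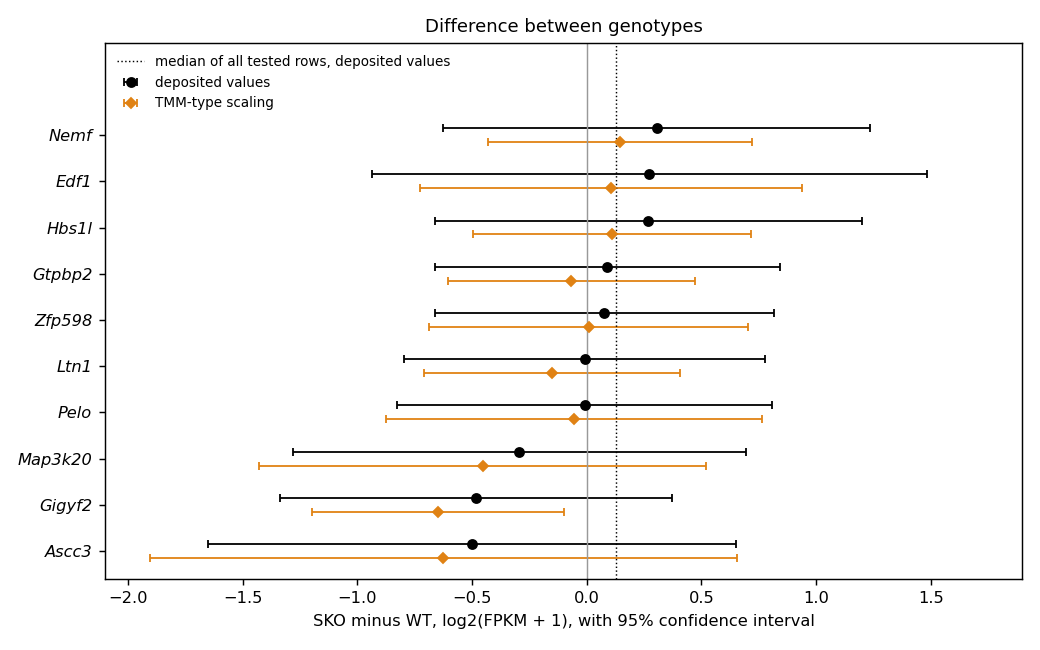
Fitted SKO minus WT difference of each gene on the log2(FPKM + 1) scale with its 95% confidence interval (limma), for the deposited values (black circles) and under TMM-type scaling (orange diamonds). The dotted line marks the median of all tested rows in the deposited values, 0.13, and every interval except the scaled one of Gigyf2 includes 0.

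Edf1, Hbs1l, Nemf and Ltn1 ranked the libraries of each group alike. Within SKO, replicate 2 was the highest, replicate 3 next and replicate 1 the lowest for all of these 4 genes, and within WT the order was replicate 3, replicate 2 and replicate 1. The TMM-type factors of the libraries had the same order, at 1.31, 1.08 and 0.848 for SKO replicates 2, 3 and 1, and 1.11, 0.927 and 0.812 for WT replicates 3, 2 and 1. Division by these factors narrowed the spread of Nemf to an SD of 1.37 scaled FPKM in SKO and 4.69 in WT, against 4.81 FPKM in SKO and 7.19 FPKM in WT as deposited. For Ltn1 the SD was 0.560 scaled FPKM in SKO and 0.442 in WT after scaling, against 1.52 FPKM in SKO and 1.26 FPKM in WT before. As these 4 genes follow the order of the factors, a narrower spread after division by them is no separate result. Ascc3 did not follow this order, and its SD in SKO was 6.10 scaled FPKM, against 4.53 FPKM as deposited. The SD in SKO also rose for Pelo (0.439 to 0.582), Zfp598 (0.159 to 0.382) and Gtpbp2 (1.68 to 2.59), while their SD in WT fell. For Gigyf2 and Map3k20 the SD fell in SKO and rose in WT.

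The rank of a gene among the 11159 tested protein-coding rows of its own library does not depend on library scaling. Edf1 stood between percentiles 96.4 and 97.5 in SKO libraries and between 95.9 and 98.4 in WT libraries. Hbs1l, Nemf and Gtpbp2 stood between percentiles 72.3 and 85.2 in SKO and between 76.6 and 84.9 in WT. Ltn1 lay near the middle, between percentiles 51.4 and 58.5 in SKO and between 55.3 and 60.3 in WT. Gigyf2 ranked between percentiles 76.4 and 79.8 in SKO libraries and between 82.0 and 88.5 in WT libraries, so its ranks did not overlap between the genotypes, and those of the other 9 genes did. Ranks did not overlap for 24.3% of the 11159 rows, 11.9% in the lower direction, so 1 of 10 is not above the share of all rows. Ascc3 spanned percentiles 42.9 to 79.8 in SKO and 57.5 to 79.2 in WT, and Map3k20 percentiles 7.00 to 43.2 in SKO and 19.5 to 47.1 in WT. For 6 of the 10 genes the rank moved by less than 10 percentile points over the 6 libraries.

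**Figure D3:**
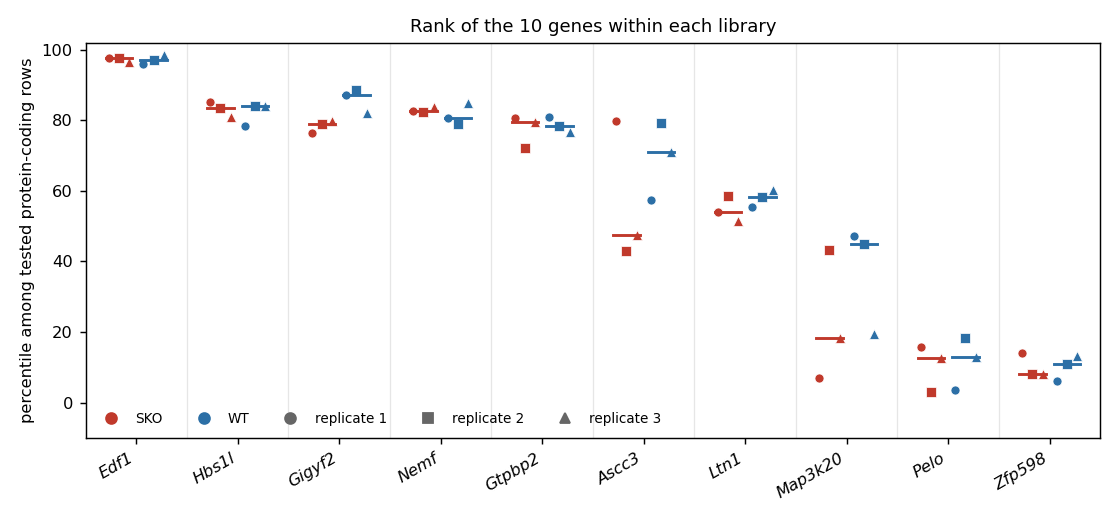
Percentile of each gene's FPKM among the 11159 tested protein-coding rows of the same library, with SKO in red on the left and WT in blue on the right. Symbols mark replicates and lines the group medians. The ranks of Gigyf2 do not overlap, as for 24.3% of all these rows, and Ascc3 and Map3k20 spread most widely.

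By density per length, averaged over the 6 libraries, the order was Edf1 (105.1 FPKM), Hbs1l (18.3), Gigyf2 (17.9), Nemf (17.7), Gtpbp2 (13.1), Ascc3 (7.97), Ltn1 (5.26), Map3k20 (2.38), Pelo (1.01) and Zfp598 (1.00). Edf1 was set apart from Hbs1l in all 6 libraries with no overlap of their ranges, and so was Ltn1 from Map3k20. The 7 other neighbouring pairs had overlapping ranges. Pelo lay above Zfp598 in 3 of the 6 libraries, and Gigyf2 above Nemf in 2 of 6. The least dense member, Zfp598, had 1.05 ± 0.159 FPKM in SKO and 0.948 ± 0.188 FPKM in WT (SD, n = 3 each).

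Partner genes were also compared as ratios within each library. The log2 ratio of Pelo to Hbs1l (each as FPKM + 1) was -2.94, -4.14 and -3.01 in the SKO libraries and -2.77, -2.99 and -3.50 in the WT libraries. Gigyf2 over Zfp598 gave 2.30, 3.38 and 3.08 in SKO and 3.42, 3.72 and 3.29 in WT, where 1 SKO library lay inside the WT range. Ascc3 over Zfp598 gave 2.52, 1.33 and 1.33 in SKO and 1.62, 2.81 and 2.48 in WT. Nemf over Ltn1 gave 1.53, 1.61 and 1.97 in SKO and 1.26, 1.17 and 1.74 in WT. All 4 ratios overlapped between the genotypes. Pelo and Zfp598 lay at about 1 FPKM, so the ratios that hold them depend on the 1 that was added. The difference of Ascc3 over Zfp598, SKO minus WT, was -0.58, against -0.71 with 0.1 added and -0.35 with 5 added. The exact permutation p-values of the 4 ratios (two-sided, n = 3 against 3) were 0.6, 0.2, 0.3 and 0.3, or 0.6, 0.4, 0.4 and 0.4 after Benjamini-Hochberg adjustment, and this design cannot go below 0.1.

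Other genes of these pathways gave no call either. Of 18 further genes of collision sensing, marking and signalling, 16 were listed and tested, and 0 passed at an adjusted p under 0.05 in either direction (limma, smallest adjusted p = 0.394). Their median difference was -0.18, which is -0.30 relative to the median of all tested rows, compared with 0.035 and -0.09 for the 10 members. With 1 library left out the value against all rows ran from -0.38 (without WT replicate 1) to -0.10 (without SKO replicate 1) for the list, and from -0.21 (without WT replicate 1) to -0.017 (without SKO replicate 2) for the members. Rnf25, a ubiquitin ligase of stalled ribosomes, had 36.9 ± 4.69 FPKM in SKO and 29.6 ± 3.85 FPKM in WT (SD, n = 3 each). Gcn1, which binds collided ribosomes and activates the kinase GCN2, had 6.39, 11.98 and 8.83 FPKM in the SKO libraries, against 11.3, 33.7 and 24.6 FPKM in the WT libraries. SKO replicate 2 was the only SKO library above a WT library, and the difference was -1.18 (interval -2.21 to -0.14, limma, unadjusted p = 0.0297, adjusted p = 0.394). It was the single gene of the 16 with an unadjusted p under 0.05, against 11.0% of all rows (2.83% lower in SKO). Under TMM-type scaling there were 3 (Gcn1, Cnot4 and the stress kinase gene Mapk8), all lower in SKO, against 15.6% of all rows (6.71% lower). Cnot4, a ubiquitin ligase of the CCR4-NOT deadenylase complex, was named, as was Mapk8, after its values were seen. The groups of Cnot4 alone of the 16 did not overlap in the deposited values, against 15.7% of all rows (4.78% lower in SKO). It had 8.25, 7.68 and 6.14 FPKM in SKO and 8.25, 16.0 and 19.9 FPKM in WT (limma, adjusted p = 0.482). Its highest SKO value and its lowest WT value were nearly equal. Under TMM-type scaling the groups of Gcn1 did not overlap either, which makes 2 of 16, against 21.5% of all rows (9.85% lower in SKO).

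The 9 further genes of ribosome recycling and decay of the stalled mRNA were all tested and 0 passed in either direction (smallest adjusted p = 0.557, limma), and 0 of 9 had an unadjusted p under 0.05, against 11.0% of all rows. Under TMM-type scaling 1 did (Gtpbp1, a relative of Gtpbp2, lower in SKO), against 15.6% (6.71% lower). The groups of 1 gene (Xrn1, an mRNA exonuclease, lower in SKO) did not overlap under this scaling, against 21.5% (9.85% lower). Both were named after their values were seen. The median of the list lay -0.05 from that of all rows, and this value ran from -0.18 (without SKO replicate 2) to 0.010 (without WT replicate 3) with 1 library left out. The densest were Skiv2l, a helicase that feeds mRNA to the exosome, with 34.7 ± 10.2 FPKM in SKO and 32.7 ± 8.28 FPKM in WT, and Dis3, an exosome nuclease, with 21.2 ± 9.62 FPKM in SKO and 15.9 ± 4.12 FPKM in WT (SD, n = 3 each).

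Of 8 further genes that remove the unfinished chain, 7 were tested and 0 passed in either direction (smallest adjusted p = 0.394, limma). Their median lay 0.31 above that of all rows (0.23 to 0.46 with 1 library left out). Ufd1 and Vcp, parts of the segregase that extracts ubiquitinated chains, had 37.7 ± 9.18 and 26.7 ± 12.1 FPKM in SKO, against 24.7 ± 6.98 and 27.7 ± 9.83 FPKM in WT (SD, n = 3 each). Klhdc10, the substrate receptor of a ligase that recognises alanine tails on stalled chains, was named after its values were seen. It had 11.7, 24.6 and 25.2 FPKM in the SKO libraries, against 5.57, 10.1 and 10.8 FPKM in the WT libraries. Its lowest SKO value lay above its highest WT value, which held for 1 of the 7 genes and for 10.9% of all rows in this direction. It was also the single gene of the 7 with an unadjusted p under 0.05, against 11.0% of all rows (8.15% higher in SKO). Its difference was 1.10 (interval 0.14 to 2.07, limma, unadjusted p = 0.0293, adjusted p = 0.394). Under TMM-type scaling the groups of Klhdc10 and Ufd1 did not overlap, 2 of 7 against 21.5% of all rows (11.6% higher in SKO).

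Of 5 mitochondrial rescue genes 3 were listed and 2 tested. Neither Mtres1, at 5.46 ± 1.19 FPKM in SKO and 7.83 ± 1.40 FPKM in WT, nor the peptidyl-tRNA hydrolase gene Mrpl58, at 2.62 ± 0.155 FPKM in SKO and 2.61 ± 0.459 FPKM in WT, passed (SD, n = 3 each; limma, adjusted p = 0.664 and 0.994). Under TMM-type scaling the groups of Mtres1 did not overlap, as for 21.5% of all tested rows (9.85% lower in SKO). Its scaled difference was -0.60 (limma, unadjusted p = 0.0501, adjusted p = 0.321). The remaining genes of the 4 lists that were not listed were not analysed here.

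**Figure D4:**
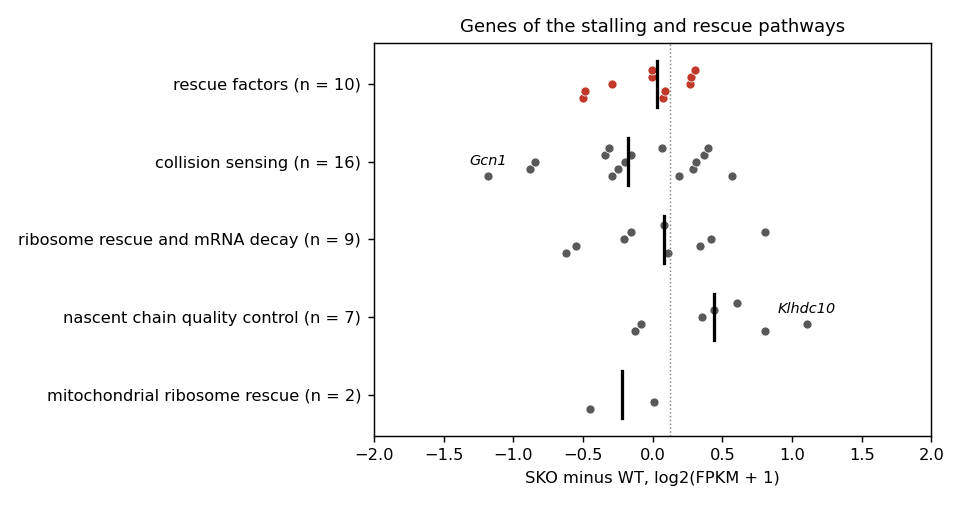
Fitted SKO minus WT differences on the log2(FPKM + 1) scale of the 10 rescue factors (red) and of the tested genes of the 4 pathway lists (grey), with 1 point per gene and a bar at each list's median. The dotted line is the median of all tested rows, 0.13. Gcn1 at -1.18 and Klhdc10 at 1.10 lie farthest out, and no gene shown passed the adjusted threshold.

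The gene whose pattern over the libraries was most like that of Edf1, the densest member, was Efl1 (Pearson r = 0.997 of log2(FPKM + 1) over 6 libraries), which encodes a GTPase of large subunit maturation. Fam107b (r = 0.995) and Map4 (r = 0.988), a microtubule-associated protein gene, followed. With 6 libraries and 10536 candidate rows such values are a description, since 397 rows had an r above 0.9 and all share the scaling of the same libraries.

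The promoters of the members are shown for a feature that the choice of genes did not use, the half-site TGACGT of the cAMP response element, which CREM, a transcription factor of round spermatids, and its relatives bind. The motif was chosen after the sequences had been seen. It was searched as TGACGT and, for the other strand, ACGTCA in RefSeq promoter windows of GRCm38.p6 running from 250 bases before to 50 bases after each start site. All 10 members had a window, and 5 of them (50.0%) held the half-site, against 9.60% of 17492 protein-coding genes. Since the motif was picked with the members' sequences in view, these shares cannot show that the members hold it more often than other genes. The members' windows were not matched to the others in base composition, and the full palindrome was in none of them. The matches with their surroundings, 30 bases each on the gene's strand with the half-site in capitals, are:
Pelo (chr13:115090301-115090330, minus strand): gaccgcctccttTGACGTttatctagggcg
Hbs1l, upstream match (chr10:21295847-21295876, plus strand): gccttgaagtccACGTCAgtcaattcgctt
Hbs1l, match at the start (chr10:21295974-21296003, plus strand): agtgcgcaggtaTGACGTcgcgcatgcgcg
Zfp598 (chr17:24669665-24669694, plus strand): gcctgagggcagTGACGTcgacggaagggg
Gigyf2 (chr1:87326993-87327022, plus strand): cgcggggtcacgTGACGTgcgtggcgacgt
Ascc3, upstream match (chr10:50592622-50592651, plus strand): gcggccgggtgcTGACGTggcgacgttggc
Ascc3, match at the start (chr10:50592651-50592680, plus strand): cgtcgcggtcggTGACGTatggccggcgcc
The 10 members had 11 windows, and for Gigyf2 and Ascc3 the start site of the matched window is not the first base of the gene span given above. The match of Pelo began at position -160, counted from 0 at the start site of its window, and the upstream one of Hbs1l at -120. The others began between -35 and 7. Genes with and without the half-site were found at both ends of the density order: Pelo and Zfp598 with it at about 1 FPKM, Map3k20 without it at 2.38 FPKM, Hbs1l with it at 18.3 FPKM and Edf1 without it at 105.1 FPKM. A match is a stretch of letters, and no binding was measured here.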

How the data were processed

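Ribosome-protected fragments were measured in 3 Eif5a SKO and 3 WT samples of round spermatids, grouped by their genotype labels. The deposited values are FPKM, 1 per gene and library, computed by the authors. Per the submitters' processing notes, the tools were STAR, Cufflinks, cutadapt and Bowtie2 and the build was mm10; annotation, filters and handling of shared reads: not given in the sources used here. Being relative, these values shift together, so a few very dense rows move all others of a library. Absolute depth is unknown: of 2710 low rows 21.9% stepped in whole reads within 2%, too few to recover counts, and 0 members did. The test used 15578 of 22770 rows, those averaging 1 FPKM or more, on log2(FPKM + 1), which understates changes of low genes. It was limma 3.58.1 (R 4.3.3): a linear fit with trended eBayes variances, two-sided p-values and Benjamini-Hochberg adjustment over the tested rows, with a threshold of 0.05. The fit was run on simulated data with 200 changed rows, all with changes larger than the members' differences, so this run does not assess small differences. The p-values reflect only how these samples spread, which may be technical. Coordinates and promoters are RefSeq's of GRCm38, the assembly of mm10. Protein sequences were not used here. The members and lists were chosen with earlier results of these data known. Genes named are all members, Eif5a, listed genes that overlap a member, genes past the threshold in 4 pathway lists or otherwise their 2 densest, and the 3 tested protein-coding genes most like the densest member. Others, except Clu as the only listed Sertoli cell marker, are marked as named after their values were seen. Alternatives changed the pseudocount (0.1 or 5), the filter (none, or 5 FPKM), the scaling (TMM-type, quantile, TPM), the variance model and identical rows, added the replicate block, or dropped 1 library in turn.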

Additional observations from a re-analysis of the deposited data

How the results depend on the processing

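No member passed the threshold in any of 161 member values under 17 alternative settings (limma), where the smallest adjusted p was 0.151, for Gigyf2 with quantile normalization, and the 4 pathway lists likewise had 0 calls. Gigyf2 and Ascc3 were lower and Nemf higher in SKO in each of these settings, with differences of -0.67 to -0.24 for Gigyf2, -0.96 to -0.23 for Ascc3 and 0.10 to 0.63 for Nemf when 1 library was left out. The difference of Nemf, 0.31, was 0.15 with TMM-type, 0.12 with TPM and 0.063 with quantile scaling. The number of rows called over the whole table, 20 with the deposited values, moved to 4 with a pseudocount of 5, 5 with no filter, 86 with a mean of at least 5 FPKM, 159 with TMM-type scaling, 446 with quantile normalization, 9 with identical rows counted once, 63 with robust estimation and 4 to 31 with 1 library left out (31 without SKO replicate 2, 4 without WT replicate 3). Of these calls 17 were higher and 3 lower with the deposited values, against 119 and 40 with TMM-type scaling and 248 and 198 with quantile normalization. Replicate numbers showed no clear pairing of the samples, though 3 libraries per group cannot exclude it. The deviations of same-numbered libraries correlated at 0.0926, 0.0002 and 0.0243, and 0.0926 was the highest of all pairs of an SKO and a WT library. The replicate block gave 5 calls and 0 members, with 2026 rows at an unadjusted p under 0.05, against 1710 without it (limma). The median difference of all tested rows was 0.13 as deposited, 0.0028 with TMM-type scaling, -0.018 with quantile normalization and -0.021 with TPM scaling. Signs turned for small differences: -0.067, -0.13 and -0.095 for Gtpbp2, -0.087, -0.17 and -0.11 for Skiv2l and -0.11, -0.081 and -0.14 for Mrpl58 with TMM-type, quantile and TPM scaling, -0.020 for Zfp598 with TPM and -0.073 for Edf1 with quantile normalization. With 1 library left out the differences ran from -0.17 to 0.19 for Pelo, -0.054 to 0.52 for Hbs1l, -0.00041 to 0.12 for Zfp598, -0.20 to 0.14 for Ltn1, -0.0012 to 0.17 for Gtpbp2, -0.16 to 0.75 for Edf1, -0.68 to 0.016 for Map3k20, -0.14 to 0.24 for Skiv2l, -0.41 to 0.22 for Vcp and -0.097 to 0.083 for Mrpl58, and from -0.49 to 0.11 for the log2 ratio of Pelo to Hbs1l. The cause of these turns was not tested. Pelo and Zfp598 fell below the filter without some libraries, and then have no value. Their ranges thus rest on 2 fits for Pelo and 4 for Zfp598, against 6 for the other genes. The median of the rescue and decay list against all rows, -0.05, was -0.25 with a mean of at least 5 FPKM and 0.0015 with no filter. That of the mitochondrial list, -0.35, moved to -0.21 with a pseudocount of 5, -0.068 with no filter and -0.66 with a mean of at least 5 FPKM (both filters change how many of its genes enter), and ran from -0.38 to -0.15 with 1 library left out. Eif5a passed in all 17. The depth behind the members' values is unknown.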
